A study of Mus musculus with 16 samples.

Results

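The 10 genes followed here encode the BCL2 family proteins that set whether a cell starts the mitochondrial route of apoptosis, and they were taken as a fixed list of names. They were Bcl2, Bcl2l1 and Mcl1 (survival proteins), Bax and Bak1 (pore-forming effectors) and Bid, Bad, Bcl2l11, Pmaip1 and Bbc3 (BH3-only proteins). All 10 were found among 26595 features in a first experiment on CD93 and among 36930 in a second experiment on a drug, and all 10 passed the filter on low values in both. Survival proteins hold BAX and BAK in check at the outer mitochondrial membrane. BH3-only proteins bind the survival proteins, and some also engage the effectors, so that BAX and BAK open the membrane and release cytochrome c. Blood stem cells depend on MCL1, and the survival proteins are known targets in chronic myeloid leukemia, where the BCR-ABL1 kinase raises Bcl2l1 transcription through STAT5.

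RNA was sequenced from sorted mouse bone marrow cells in 16 libraries of 6 groups. LSKs are lineage-negative, Sca-1-positive, Kit-positive cells, the marrow fraction that holds blood stem and progenitor cells, and came from naive BL/6 (WT) mice or naive CD93-/- (KO) mice, with 2 libraries each. Leukemia stem cells (LSCs) came from mice with chronic myeloid leukemia (CML) induced with WT or KO LSKs that carried BCR-ABL1-GFP after a double transduction, with 3 libraries each. The recipients were BL/6 and not irradiated, so KO leukemias grew in hosts with intact CD93 that kept their own marrow. In the second experiment, BL/6 mice with the same kind of CML received MCP (metoclopramide, a dopamine receptor blocker) at 10 mg/kg or vehicle (Veh), and LSCs were taken, with 3 libraries each. All mice were labelled as postnatal week 8, and only WT samples carried a strain label, C57BL/6. BCR-ABL1 in this model is expressed from a transduced construct. The labels give no length of treatment. They do not call the replicates separate animals either, and p-values then measure only the spread between these libraries, which may be technical.

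Values are RPKM, which relate reads to gene length and library size, so levels of different genes can be compared within a library. The lowest value of each table, 0.003 for CD93 and 0.001 for the drug, stands for no signal. The LSK libraries held 14279 to 14906 features above that value, the WT LSC libraries 5525 to 7956 and the KO LSC libraries 1230 to 2967. The drug experiment held 19554 to 20014 (Veh) and 15587 to 16447 (MCP). The spacing of low values gave a rough depth of 5400000 to 7720000 reads in the LSK libraries and 2750000 to 3240000 reads in the WT LSC libraries, with 55.5% to 68.2% of the low values used lying within 0.1 of a whole read. It gave no estimate for the other groups. Stem and progenitor markers (9 genes) summed to between 966 and 2014 RPKM in LSKs with all 9 above the lowest value. Their sum was 3.18 to 67.2 RPKM in WT LSCs, where 2 to 3 markers had signal and Procr, Slamf1, Mecom, Hlf and Esam were at 0.003 throughout, and 0.027 to 1.85 RPKM in KO LSCs. Neutrophil markers (8 genes) summed to 63606 to 109521 RPKM in WT LSCs and 31522 to 55005 RPKM in KO LSCs, against 1966 to 5624 RPKM in LSKs. Part of the list carried these sums: 5 to 8 of the markers had signal in WT LSCs, 4 to 5 in KO LSCs and 6 to 7 in LSKs. Mmp8, Ngp and Retnlg were at 0.003 in every KO LSC library, and Mmp8 in every LSK library too. Cd93 itself read 5.34 and 22.9 RPKM in WT LSKs, 1.01 and 2.1 RPKM in KO LSKs, 0.003, 0.003 and 5.74 RPKM in WT LSCs, and 0.003, 44.3 and 0.003 RPKM in the libraries labelled KO LSC. The Cd93 signal of the second library labelled KO LSC goes against its label, though KO LSKs had low Cd93 signal too. Where this signal came from was not tested, and values without that library are given beside the KO LSC comparisons.

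Members and genes of any kind were detected least in KO LSCs, more in WT LSCs and most in LSKs. Both WT LSK and both KO LSK libraries had signal for all 10 members. The 3 WT LSC libraries had signal for 5, 4 and 4 members, while 57.1%, 49.2% and 40% of the 13485 tested genes were above the lowest value. The 3 KO LSC libraries had signal for 1, 2 and 0 members, with 21.3%, 16.6% and 8.66% of tested genes detected. All 6 libraries of the drug experiment had signal for all 10 members and for 95.1% to 99.4% of its 14005 tested genes.

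**Figure D1:**
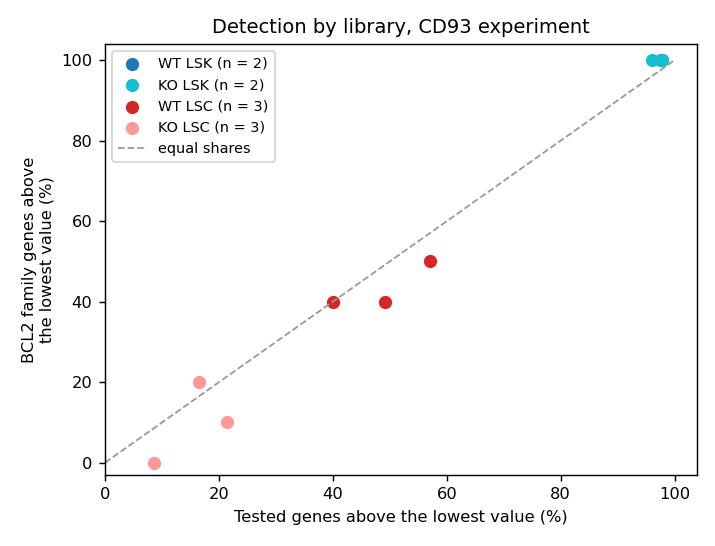
Percentage of the 10 members above the lowest value (vertical axis) against the percentage of all tested genes above it (horizontal axis), with 1 point per library of the CD93 experiment and a dashed line of equal shares. The 4 LSK libraries sit together at the top right with all 10 members, WT LSC libraries at 4 to 5 members and KO LSC libraries at the bottom left with 0 to 2.

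Members were placed on GRCm38 by the GENCODE annotation. Upstream sequence is shown for 5 of them as genomic context. Bcl2l1, Bid and Bad were among the members called in the LSC comparisons below, and Mcl1 and Bax were the members with signal left in KO LSC libraries. Bak1 and Bbc3 were called below too, and their sequence is not shown. Bcl2l1, which encodes BCL-XL, lies on chromosome 2 from 152780668 to 152831728, minus strand. Mcl1 lies on chromosome 3 from 95658788 to 95663176, plus strand. Bax lies on chromosome 7 from 45461697 to 45466898, minus strand. Bid lies on chromosome 6 from 120891930 to 120916853, minus strand. Bad lies on chromosome 19 from 6941861 to 6951899, plus strand. The 220 bases that end 31 bases before each start site were taken from RefSeq (GRCm38.p6) at chr2:152831759-152831978 (Bcl2l1, the farthest upstream of its starts, minus strand), chr3:95658471-95658690 (Mcl1, plus strand), chr7:45466929-45467148 (Bax, minus strand), chr6:120916855-120917074 (Bid, minus strand) and chr19:6941611-6941830 (Bad, the upstream start, plus strand). None of these windows overlaps an annotated exon, and all are written on the gene's strand, 5′ to 3′, with matches to the searched motifs in capitals:
Bcl2l1: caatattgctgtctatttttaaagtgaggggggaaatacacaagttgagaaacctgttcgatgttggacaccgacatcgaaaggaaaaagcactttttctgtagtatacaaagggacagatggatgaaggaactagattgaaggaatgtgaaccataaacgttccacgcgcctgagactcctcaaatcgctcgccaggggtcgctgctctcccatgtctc
Mcl1: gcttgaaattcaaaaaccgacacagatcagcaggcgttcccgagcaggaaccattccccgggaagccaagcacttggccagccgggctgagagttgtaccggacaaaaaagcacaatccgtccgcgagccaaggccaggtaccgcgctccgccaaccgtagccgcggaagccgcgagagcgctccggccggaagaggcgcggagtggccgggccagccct
Bax: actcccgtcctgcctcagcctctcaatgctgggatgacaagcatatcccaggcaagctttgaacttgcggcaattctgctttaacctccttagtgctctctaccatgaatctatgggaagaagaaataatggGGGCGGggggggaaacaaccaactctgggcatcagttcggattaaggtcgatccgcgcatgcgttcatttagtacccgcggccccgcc
Bid: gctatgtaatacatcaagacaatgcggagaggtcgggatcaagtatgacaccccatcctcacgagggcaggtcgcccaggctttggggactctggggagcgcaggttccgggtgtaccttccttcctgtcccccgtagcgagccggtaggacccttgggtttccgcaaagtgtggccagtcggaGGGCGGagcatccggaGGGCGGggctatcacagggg
Bad: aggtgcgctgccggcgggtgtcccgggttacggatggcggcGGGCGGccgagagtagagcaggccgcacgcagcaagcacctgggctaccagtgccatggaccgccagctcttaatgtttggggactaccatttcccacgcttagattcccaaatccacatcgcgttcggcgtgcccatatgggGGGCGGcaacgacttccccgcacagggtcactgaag
The motifs searched on both strands were TTCNNNGAA (the STAT site), GGGCGG (the GC box) and CACGTG (the E-box), which do not overlap one another in these windows. The GC box was present 2 times in the Bid window, 2 times in the Bad window and 1 time in the Bax window, and was not found in those of Bcl2l1 and Mcl1. It occurs in 28.5% of all 32851 RefSeq windows of this length, TTCNNNGAA in 6.27% and CACGTG in 5.01%, and the last pair of motifs was not found in any of the 5. Of the called members not shown, Bbc3 had 3, 1 and 6 GC boxes in its windows and 1 CACGTG, and Bak1 had no match. A match is a description of the letters only. Of the other members, Bcl2 lies on chromosome 1 from 106538178 to 106714274, Bak1 on chromosome 17 from 27019810 to 27029009, Bcl2l11 on chromosome 2 from 128126038 to 128162547 and Bbc3 on chromosome 7 from 16308393 to 16318205. Bid overlaps Bcl2l13, Bak1 overlaps Ggnbp1 and Bcl2 overlaps the antisense gene D630008O14Rik, and without strand information reads from such overlaps cannot be assigned to either gene. Bax overlaps the protein-coding gene Gm45808 on its own strand, where strand information would not separate the reads either.

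In naive WT LSKs the effector Bax was the most abundant member and the other effector, Bak1, was near the bottom. Bax read 489.6 and 249 RPKM and Bak1 read 0.82 and 3.43 RPKM. The BH3-only genes split: Bad (115.9 and 63.4 RPKM) and Bid (65.6 and 105.2 RPKM) stood next to Bax, while Bbc3, Bcl2l11 and Pmaip1 were at most 7.19 RPKM. BAD displaces BCL2 and BCL-XL when growth factor signals are withdrawn, and BID links death receptors to mitochondria. Among the survival genes Bcl2 read 37.7 and 28.7 RPKM, Bcl2l1 17.4 and 24.8 RPKM and Mcl1 16.6 and 9.22 RPKM, and each of these pairs lay apart from the next. Bad and Bid overlapped, as did each neighbour in the run Bbc3, Bcl2l11, Bak1 and Pmaip1.

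KO LSKs had the same gene at the top and Pmaip1 at the bottom. Bax read 384 and 529 RPKM, Bad 123 and 113 RPKM, Bid 59.9 and 31.1 RPKM, Bcl2 42.6 and 44.9 RPKM, Mcl1 16.1 and 24.1 RPKM and Bcl2l1 17.6 and 7.62 RPKM. The low members read 12.1 and 7.61 RPKM (Bbc3, which encodes PUMA), 6.6 and 3.12 RPKM (Bcl2l11, which encodes BIM), 1.86 and 2.64 RPKM (Bak1) and 1.67 and 0.591 RPKM (Pmaip1, which encodes NOXA, against 2.21 and 0.433 RPKM in WT LSKs). Bid and Bcl2 overlapped here, as did Mcl1 and Bcl2l1, and Bcl2l1 and Bbc3.

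None of the 10 members was called between KO and WT LSKs by limma, and none had an unadjusted p under 0.05. Intervals in this fit were wide, up to −7.59 to 8.33 for Bax, so the lack of a call does not show the lack of a change. The background was 1.83% of tested genes called in either direction. Bcl2 and Bbc3 were higher in both KO libraries than in both WT libraries and Bid was lower, where 14% of tested genes lay apart upward and 20.5% downward. In log2(RPKM + 1), KO minus WT was 0.40 for Bcl2 (SE 2.31, adjusted p = 1), 0.75 for Bbc3 (SE 0.45, adjusted p = 0.938) and −0.93 for Bid (SE 0.43, 95% interval −1.92 to 0.07, adjusted p = 0.66), with 2 libraries a group. The median over the members was 0.29, and over all tested genes −0.11. The SE of Bcl2 carried the spread of the LSC libraries, and in a fit of the 4 LSK libraries alone the SEs ran from 0.37 to 0.68, with adjusted p of 0.83 to 0.994. Bcl2l1 (−0.78, SE 0.38, adjusted p = 0.715) passed the threshold only without the first KO LSK library, at −1.34 and adjusted p = 0.0249, where the KO group was the lone library at 7.62 RPKM.

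**Figure D2:**
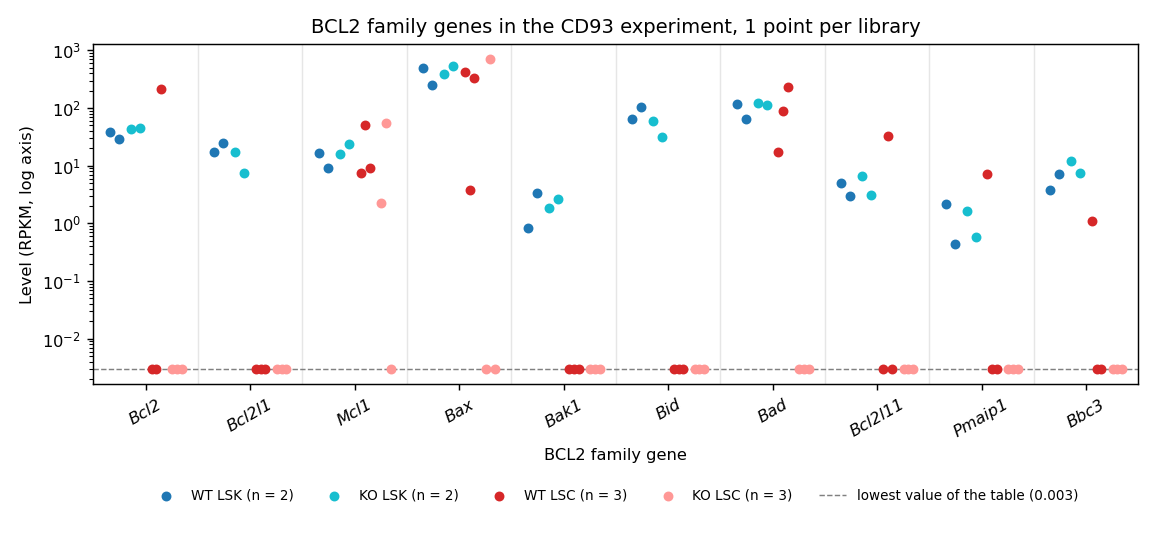
RPKM of the 10 members on a log axis in the 10 libraries of the CD93 experiment, with 1 point per library coloured by group; points at the bottom are at the lowest value, 0.003. The LSK points lie above 0.4 RPKM for every member, and the LSC points of Bcl2l1, Bak1 and Bid are all at 0.003.

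Bcl2l1, Bak1, Bid and Bbc3 fell in WT LSCs against WT LSKs, where the libraries held little or no signal for them. Bcl2l1, Bak1 and Bid were at 0.003 RPKM in all 3 WT LSC libraries, as were 30.9% of tested genes. Bbc3 read 1.11, 0.003 and 0.003 RPKM. Genes that most cells use were also without signal there, Tbp in all 3 libraries, Hprt in replicates 1 and 2 and Pgk1 in replicate 2, and the sum of 10 such genes was 4078 to 5196 RPKM against 15509 to 16925 RPKM in WT LSKs. Replicates correlated at r of 0.669 to 0.728 across genes in WT LSCs and 0.926 in WT LSKs, and the part of this in the fall was not tested. The adjusted p by limma was 2.06e-05 for Bcl2l1, 6.21e-06 for Bid, 0.0078 for Bak1 and 0.0022 for Bbc3. Bcl2l1, Bak1 and Bid were at 0.003 in all 6 LSC libraries, KO ones included, which added no spread to the shared estimate. In a fit of the WT libraries alone the adjusted p was 0.000525 for Bcl2l1, 0.000577 for Bid and 0.0203 for Bbc3, and Bak1 was not tested. The 4 of 10 members called in the main fit compare with 43.8% of tested genes called in either direction, 42.3% lower and 1.45% higher. The median difference was −1.74 over the members and −1.94 over all tested genes. With quantile scaling, which shifts that overall median to 0.23, Bak1 and Bbc3 turned to 0.41 and 0.23 and were not called, while Bcl2l1 and Bid stayed lower. These 4 members passed the filter on low values through the LSK libraries alone, and in bulk RNA fewer expressing cells and less RNA per cell cannot be told apart.

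Of the other 6 members, Mcl1, Bax and Bad had signal in all 3 WT LSC libraries and Bcl2, Bcl2l11 and Pmaip1 in 1 each. Bcl2 was at 0.003, 0.003 and 212 RPKM, so its highest value of the experiment stood beside a pair with no signal. At the estimated depth 1 Bcl2 read is worth 0.0337 to 0.0397 RPKM in these libraries, and 212 RPKM is about 6286 reads. Bax read 423, 3.79 and 338 RPKM, and Bad 17.4, 87.9 and 231 RPKM, a wider span than the 63.4 and 115.9 RPKM of WT LSKs. Mcl1, the short-lived survival protein, read 7.48, 50.6 and 9.29 RPKM, which overlaps WT LSKs. Bcl2l11 read 0.003, 33.3 and 0.003 RPKM and Pmaip1 7.26, 0.003 and 0.003 RPKM. None of these 6 passed the threshold (adjusted p 0.387 to 0.956). Single libraries decided 2 of them: Bcl2 was called lower without the third WT LSC library (adjusted p = 2.15e-05) and Bcl2l11 without the second (adjusted p = 0.0015).

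In KO LSCs, 27 of the 30 member values were at 0.003 (90%, beside 84.5% of the values of all tested genes). Bcl2, Bcl2l1, Bak1, Bid, Bad, Bcl2l11, Pmaip1 and Bbc3 were at 0.003 in all 3 libraries, as were 70.6% of tested genes. The 3 exceptions were Mcl1 at 2.23 RPKM in the first library and Mcl1 at 55.0 and Bax at 697 RPKM in the second, the library with Cd93 signal. Bcl2l1, Bak1, Bid, Bad and Bbc3 fell against KO LSKs. Of these, Bcl2l1, Bak1, Bid and Bbc3 passed the filter through the LSK libraries alone, and Hprt and Tbp were without signal in all 3 KO LSC libraries too. The tests gave limma adjusted p of 6.09e-05 (Bcl2l1), 1.39e-05 (Bid), 0.000214 (Bbc3), 0.000804 (Bad) and 0.0034 (Bak1), while 62.2% of tested genes were called, 61.7% lower. Bcl2 was at 0.003 in all 3 KO LSCs against 42.6 and 44.9 RPKM in KO LSKs, and its adjusted p was 0.052, on the edge of the threshold. Bcl2 was called lower with 0.1 added in place of 1 (0.0351) and with the replicate block (0.0218). It was not called with quantile scaling (0.456), with no filter (0.065) or with a mean of at least 5 RPKM (0.0537). A fit of the KO libraries alone also called it (1.03e-05, SE 0.0797 against 2.11 in the main fit). There the 3 LSC values of Bcl2 were all 0.003 and held no spread, and it passed the filter through the LSK libraries alone. The median difference over the members was −3.53 and over all tested genes −3.06 (−3.59 and −3.13 without the second library). Without the second library Mcl1 and Bax were called lower too (adjusted p = 0.0248 and 0.011). Quantile scaling moved the overall median to 0.12, and under it Bcl2l1 (−0.15, adjusted p = 0.665) and Bbc3 (0.02) were not called. Bid and Bad stayed lower, while Bak1 turned to 0.74 and was called higher (adjusted p = 0.0126). That sign belongs to the scaled values, since Bak1 read 0.003 RPKM in all 3 KO LSC libraries and 1.86 and 2.64 RPKM in KO LSKs.

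Bad was the 1 member of 10 called lower in KO LSCs against WT LSCs, a count near the share over all tested genes. It read 17.4, 87.9 and 231 RPKM in the WT libraries and 0.003 RPKM in all 3 KO libraries, and the groups did not overlap (limma adjusted p = 0.0043, range over the alternatives 0.000657 to 0.0443). The background was 8.74% of tested genes called lower and 8.81% called in either direction, and 14.1% lay apart downward. The same on-off pattern, signal in all 3 WT LSC libraries and none in the 3 KO LSC libraries, was found for 9.74% of tested genes. The library labelled KO with Cd93 signal had none for Bad, and the call held without it. The 3 KO LSC values of Bad held no spread. In a fit of the LSC libraries alone its SE was 1.25, against 0.944 in the main fit (limma adjusted p = 0.0241). Gpr137 overlaps Bad on the opposite strand, and without strand information reads from the overlap cannot be assigned. Gpr137 read 5.64, 13.1 and 0.003 RPKM in WT LSCs and 0.003 RPKM in KO LSCs, and its part in the result was not tested.

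The other 9 members did not pass the threshold between KO and WT LSCs (adjusted p 0.537 to 1). Bcl2l1, Bak1 and Bid were at 0.003 in all 6 libraries, a pattern of no LSC signal and full LSK signal seen in 24.4% of tested genes. Bcl2, Bcl2l11, Pmaip1 and Bbc3 were at 0.003 in the KO libraries and above it in 1 WT library each. Mcl1 and Bax differed by −1.54 and −3.31, and by −3.2 and −6.46 without the second KO library (adjusted p = 0.112 for both). The member median was −1.28, beside −0.77 over all tested genes (−1.36 and −0.8 without that library). The fitted LSC minus LSK effect differed between genotypes for Bad, at −6.62 in KO minus WT (SE 1.49, adjusted p = 0.0425), where 6.08% of tested genes were called and 5.15% had a lower effect in KO. That call was lost in 8 of 10 fits with 1 library left out, and the fitted size depends on the 1 added before the logarithm, since KO LSCs are at 0.003. The fewer genes detected in KO LSCs, and the neutrophil and stem cell marker sums given above, move with all LSC comparisons, and their part in the results was not tested.

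The drug experiment gave another profile of LSCs, with signal for every member and small spread. In Veh LSCs Mcl1 was the highest, at 79.6, 88.0 and 97.7 RPKM, and Bcl2 the lowest, at 4.58, 4.92 and 5.49 RPKM. Between them came Bax (67.1, 69.5 and 64.9 RPKM), Bak1 (51.7, 54.2 and 46.9 RPKM), Bid (41.1, 43.7 and 31.2 RPKM), Pmaip1 (28.3, 43.4 and 33.8 RPKM), Bad (22.9, 24.1 and 19.4 RPKM), Bbc3 (11.8, 14.1 and 13.0 RPKM), Bcl2l11 (8.58, 10.2 and 11.7 RPKM) and Bcl2l1 (7.27, 7.34 and 6.51 RPKM). All neighbours in that order lay apart except Bid and Pmaip1. Bak1, Bid and Bcl2l1, at no signal in the WT LSCs of the CD93 experiment, were thus all present in WT LSCs of the drug experiment. The tables were normalized separately, so no test was made between them. Stem and progenitor markers summed to 273 to 287 RPKM in Veh LSCs with all 9 detected, and neutrophil markers to 185 to 205 RPKM.

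**Figure D3:**
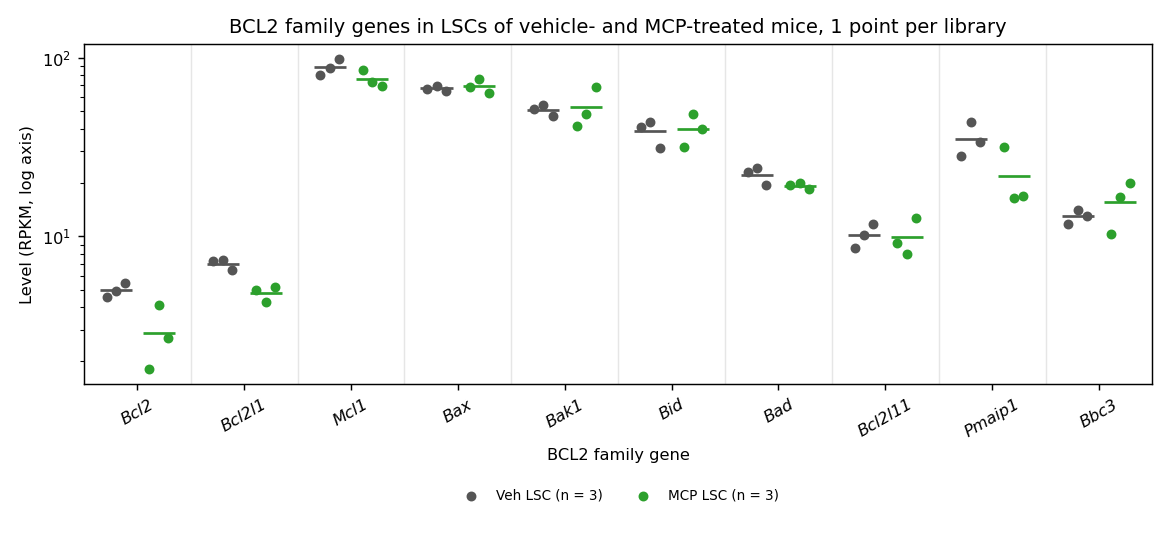
RPKM of the 10 members on a log axis in the 6 libraries of the drug experiment, with 1 point per library coloured by treatment. The MCP points of Bcl2 and Bcl2l1 all lie below the Veh points, and those of the other 8 members overlap.

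The survival genes Bcl2 and Bcl2l1 were lower in each MCP library than in each Veh library, but neither passed the threshold. Bcl2 read 1.81, 4.12 and 2.69 RPKM with MCP, a mean of 2.87 ± 1.16 (SD, n = 3) against 4.999 ± 0.458 with Veh. The difference in log2(RPKM + 1) was −0.67 (SE 0.27, 95% interval −1.31 to −0.03), with an unadjusted p of 0.042 and an adjusted p of 0.201 by limma. Bcl2l1 read 5.003, 4.32 and 5.21 RPKM, a mean of 4.84 ± 0.468 (SD, n = 3) against 7.04 ± 0.459 with Veh. Its difference was −0.46 (SE 0.19, 95% interval −0.90 to −0.03), with an unadjusted p of 0.0402 and an adjusted p of 0.198 by limma. Both differences lay further down than the median of all tested genes, −0.18. Of all tested genes 25.6% lay apart downward as these did, against 4.91% upward, so lying apart downward was not particular to these members. MCP libraries also held fewer features above the lowest value, 15587 to 16447 against 19554 to 20014 with Veh. The part of this in the differences was not tested. Mcl1 read 85.0, 72.9 and 69.1 RPKM with MCP and overlapped Veh, with a difference of −0.22 (SE 0.11, 95% interval −0.49 to 0.04, adjusted p = 0.282).

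No member was called between MCP and Veh by limma, where 2.32% of tested genes were. An unadjusted p under 0.05 was found for 3 members, Bcl2, Bcl2l1 and Pmaip1, and for 3226 of the 14005 tested genes. Pmaip1 read 31.8, 16.4 and 16.8 RPKM with MCP, so that the first library lay within the Veh range, and its difference was −0.72 (SE 0.27, 95% interval −1.35 to −0.08, adjusted p = 0.179). NOXA is the BH3-only protein that chiefly binds MCL1. The median difference was −0.12 over the members and −0.18 over all tested genes.

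The effectors stayed close to 0 in difference, which bounds a change rather than shows none. Bax read 68.1, 75.5 and 63.5 RPKM with MCP (difference 0.04, 95% interval −0.18 to 0.25) and Bak1 41.5, 48.4 and 68.5 RPKM (0.02, 95% interval −0.39 to 0.44). Of the BH3-only genes Bid read 31.7, 48.5 and 39.9 RPKM (0.04, 95% interval −0.39 to 0.48) and Bad 19.4, 19.8 and 18.5 RPKM (−0.19, 95% interval −0.49 to 0.11). Bcl2l11 read 9.16, 7.92 and 12.7 RPKM (−0.05, 95% interval −0.55 to 0.46) and Bbc3 10.3, 16.7 and 19.98 RPKM (0.21, 95% interval −0.35 to 0.77). Every interval here held 0, and the narrowest was that of Bax. MCP libraries also had lower sums of stem and progenitor markers (181 to 192 RPKM) and of mast cell and basophil markers (74.9 to 82.0 RPKM, against 228 to 242 with Veh). Their granule protease genes summed to 4784 to 4921 RPKM, against 3106 to 3368 with Veh, and the part of these shifts in the results was not tested.

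**Figure D4:**
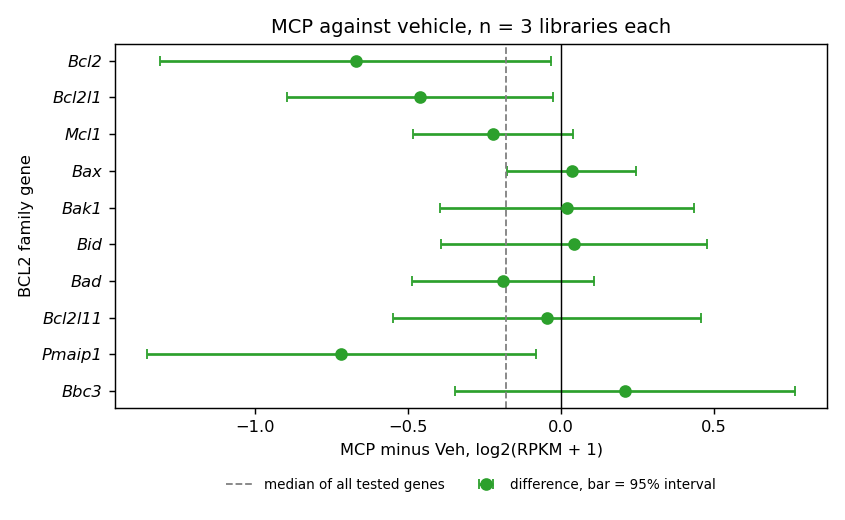
MCP minus Veh difference in log2(RPKM + 1) for each member (points) with its 95% interval (bars), 3 libraries per group; the dashed line is the median of all tested genes, −0.18. The intervals of Bcl2, Bcl2l1 and Pmaip1 lie below 0 before adjustment for the number of genes, and those of the other 7 members include 0.

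Summed by role, the effectors led in LSKs, and the roles were closer to even in the drug experiment, most of all with Veh. Survival genes made up 9.51% to 12.7% of the members' summed RPKM in WT LSKs and 10.0% to 11.5% in KO LSKs, and effectors 51.0% to 65.0% and 58.0% to 69.7%. In Veh LSCs the shares were 27.9% to 33.2% for survival genes, 33.8% to 36.8% for effectors and 33.0% to 37.7% for BH3-only genes. In MCP LSCs they were 24.3% to 30.2%, 36.1% to 41.7% and 33.7% to 34.8%, so the ranges of the groups overlapped for each role. In WT LSCs of the CD93 experiment single genes set the shares, and the effectors ran from 2.16% to 92.7%. Shares are given as a description, without a test, and those of KO LSCs rest on at most 2 genes with signal.

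**Figure D5:**
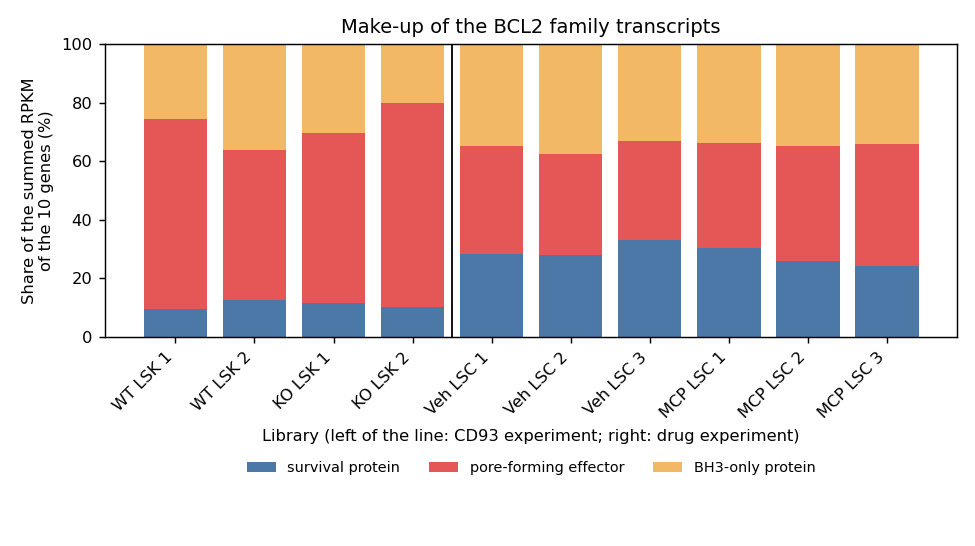
Share of the members' summed RPKM (percent, vertical axis from 0 to 100) taken by survival, effector and BH3-only genes in each library. Effectors take over 50% in all 4 LSK libraries, and each role takes between 24.3% and 41.7% in the Veh and MCP libraries.

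Apoptosis genes outside the 10 were grouped in 5 lists. In WT LSCs against WT LSKs, the genes called lower were 3 of 9 tested among other BCL2 family genes, 5 of 14 in the apoptosome and caspase list, 6 of 9 in the death receptor arm, 4 of 9 mitochondrial partners and 5 of 12 regulators, and none was called higher, beside 42.3% of all tested genes called lower. Caspase genes Casp9 (initiator caspase of the apoptosome) and Casp6 (an executioner) went from 6.05 and 8.70 RPKM and from 75.4 and 101 RPKM in WT LSKs to 0.003 RPKM in all 3 WT LSC libraries. Tradd, an adaptor of the TNF receptor, went from 113 and 109 RPKM to 0.003, 0.783 and 0.003 RPKM. Bok, an effector relative of Bax, went from 15.8 and 5.05 RPKM to 0.003 RPKM in all 3. Casp9, Casp6, Tradd and Bok reached 1 RPKM in no LSC library of this experiment, so they passed the filter on low values through the LSK libraries alone. The counts in this paragraph include such genes. In KO LSCs the counts called lower were 4 of 9, 9 of 14, 8 of 9, 5 of 9 and 8 of 12 in the same order, beside the 61.7% over all tested genes. Without the library with Cd93 signal they were 4, 10, 6, 7 and 8, beside 58.9%.

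Between KO and WT LSCs, 1 of 9 other BCL2 family genes, 4 of 14 apoptosome genes, 1 of 9 death receptor genes, 1 of 9 mitochondrial partners and 1 of 12 regulators were called, all lower, beside 8.74% of all tested genes. Without the KO library with Cd93 signal the counts were 1, 3, 1, 1 and 0, beside 8.86%. Casp8, the initiator caspase that cleaves BID, read 79.9, 18.5 and 15.4 RPKM in WT LSCs and 0.003 RPKM in KO LSCs (limma adjusted p = 0.004). Htra2, a mitochondrial protease that antagonizes caspase inhibitors, read 48.4, 7.96 and 78.4 RPKM and 0.003 RPKM in KO LSCs (adjusted p = 0.0073). Aifm1 read 35.2, 44.9 and 49.5 RPKM in WT LSCs and 0.003, 5.33 and 0.003 RPKM in KO LSCs (adjusted p = 0.0102). The other genes called were Bcl2l12, Birc2 and Birc3 (caspase inhibitor family), Tmbim6 and Usp9x, the deubiquitinase of MCL1. Casp8 and Htra2 share with Bad the pattern that 9.74% of tested genes had.

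Of these lists 1 gene, Apaf1, was called between KO and WT LSKs. Apaf1 encodes the scaffold of the apoptosome and read 2.06 and 2.88 RPKM in WT LSKs and 0.659 and 0.492 RPKM in KO LSKs (difference −1.13, SE 0.18, adjusted p = 0.0232 by limma). A fit of the 4 LSK libraries alone called 0 genes in all. The LSC minus LSK effect of Apaf1 was higher in KO than in WT by 1.1 on the log2 scale (adjusted p = 0.0342 by limma). Its LSC values were 0.003, 0.003 and 0.082 RPKM in WT and 0.003 RPKM in all 3 KO libraries. With almost no LSC signal in either genotype, that value mirrors the LSK difference with its sign turned and is no separate result. Apaf1 passed the filter on low values through the WT LSK libraries alone. Between MCP and Veh no gene of the 5 lists was called by limma, of 7, 14, 9, 9 and 12 tested, and an unadjusted p under 0.05 was found for 1, 1, 4, 0 and 4. The list medians there were −0.03, −0.08, −0.35, −0.12 and −0.25, beside −0.18 over all tested genes.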

How the data were processed

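Gene tables of 16 libraries were used. RPKM values were deposited by the authors; the unit was inferred from the values, because no label names it, and whether reads or fragments were counted is not known. Per the submitters' processing notes reads were mapped to GRCm38 (mm10); aligner, counter and annotation: not given in the sources used here. Per the labels' protocols RNA was amplified with the SMART-Seq v4 kit, which does not mark strand. Groups were taken from the titles; for the drug samples these say LSC, while the source field says LSK.

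Features that reached 1 RPKM in at least 2 libraries were tested, 13485 (CD93) and 14005 (drug), each table alone. Limma 3.58.1 in R 4.3.3 was fitted to log2(RPKM + 1) with 1 mean per group over all libraries of an experiment and a mean-variance trend. Tests were two-sided, with Benjamini-Hochberg adjustment over all tested features and a threshold of 0.05. Adding 1 understates changes of low genes. The fit was checked on simulated libraries in which 200 genes were changed. There every gene's mean was raised and its spread was the same in all groups. The check therefore does not cover libraries with most values at the lowest value, such as KO LSCs (84.5% of the values of tested genes). The members and lists were chosen with earlier results of these data known. Named pathway genes are among the up to 4 with the smallest p per list and comparison. Alternatives were quantile scaling, 0.1 in place of 1, no filter or a mean of at least 5 RPKM, a replicate block, library weights, fits of the compared groups alone and leaving out each library. RPKM gives no exact depth, so no counting intervals are given.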

Additional observations from a re-analysis of the deposited data

Results flagged for a closer look

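Bad had an LSC minus LSK effect that was lower in KO than in WT by a test of the difference itself, with a log2 difference of −6.62 between the effects (SE 1.49, limma adjusted p = 0.0425). It read 63.4 to 123 RPKM in the 4 LSK libraries, 17.4 to 231 RPKM in WT LSCs and 0.003 RPKM in all 3 KO LSC libraries. A lower effect in KO was called for 5.15% of tested genes, and 6.08% were called in either direction. The call for Bad was lost in 8 of 10 fits with 1 library left out, with quantile scaling, with library weights and with the replicate block.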

How the results depend on the processing

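The count of members called stayed at 1 (Bad) between KO and WT LSCs and at 0 between MCP and Veh under every alternative run (the mean filter left Bcl2 untested in the drug experiment), with adjusted p of 0.0844 to 0.475 for Bcl2, 0.163 to 0.557 for Bcl2l1 and 0.0501 to 0.435 for Pmaip1. Between LSCs and LSKs it went from 4 to 2 in WT and from 5 to 3 in KO, both with quantile scaling and with a mean of at least 5 RPKM, which left 7 members to test. Quantile scaling turned Bak1 to 0.41 and Bbc3 to 0.23 in WT, and to 0.74 and 0.0248 in KO. Before scaling, both genes were lower in every LSC library than in every LSK library of the same genotype. These signs therefore hold for the scaled values only. The interaction count went from 1 to 0 with quantile scaling and with library weights, whose estimation did not converge in the CD93 experiment, where SEs of members reached 65.0. The KO count was 6 with 0.1 added in place of 1 and with library weights. It was 7 of 9 tested in a fit of the KO groups alone, where 8590 of 11785 genes were called. In a fit of the WT groups alone the WT count was 3 of 9 tested, where 5093 of 12449 genes were called. Leaving out 1 library gave counts of 4 to 5 (LSC against LSK in WT), 5 to 7 (in KO), 0 to 1 (KO against WT in LSKs) and 0 to 1 (interaction, where the 1 without the first KO LSK library was Bcl2l1, not Bad). With the replicate block the counts were 1 and 0 between genotypes in LSCs and LSKs, 4 and 6 between LSCs and LSKs in WT and KO, 0 for the interaction and 0 for MCP. Samples with equal numbers did not deviate together (r from −0.0377 to 0.0376, and −0.282 for LSKs), so the numbers pair nothing. A crossed block in the 4 LSK libraries, chosen after seeing the data, called 0 members. Of 745 single-gene values, 718 kept their side of the threshold, and 42 of these, all uncalled, turned sign. A further 11 gained a call, 12 lost one with the sign kept, and 4 that were called in the main fit turned sign. Of those 4, Bak1 in KO was still called, while Bak1 in WT and Bbc3 in both genotypes were not. In KO LSCs, no member level under the detection limit can be told from absence.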

Other observations

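Bcl2a1a, Bcl2a1b and Bcl2a1d, near-identical copies of the A1 survival gene among which reads cannot be assigned with certainty, read 2531, 119.7 and 738 RPKM in KO LSC replicate 3, where all 10 members were at 0.003 RPKM. They read 0.003 RPKM in the other two KO LSC libraries and 4.76 to 49.9 RPKM in WT LSCs. Cycs, which encodes cytochrome c, read 1444 RPKM in KO LSC replicate 2, the library with Cd93 signal against its label, and 0.003 RPKM in the other two KO LSC libraries, against 73.3, 107 and 309 RPKM in WT LSCs. Endog, a mitochondrial nuclease, read 909, 408 and 0.003 RPKM in KO LSCs and 24.4 to 97.7 RPKM in WT LSCs. These genes were chosen after their values were seen. The median of all features with signal was 65.4, 127 and 144 RPKM in the 3 KO LSC libraries, against 16.4 to 31.7 RPKM in WT LSCs. A high reading in these sparse KO LSC libraries is therefore not read as a rise over WT LSCs.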
